A study of Mus musculus with 12 samples.

Results

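The glutathione and peroxide detoxifying enzymes described here are 51 genes, of 21965 in the count table, whose symbols name glutathione peroxidases (Gpx), peroxiredoxins (Prdx), superoxide dismutases (Sod), glutathione S-transferases (Gst of the classes alpha, mu, pi, theta, omega, zeta and kappa, and microsomal Mgst), catalase (Cat), glutathione reductase (Gsr), glutathione synthetase (Gss), the thioredoxins Txn1 and Txn2, the thioredoxin reductases Txnrd2 and Txnrd3 and the glutaredoxins Glrx and Glrx2. The rule takes symbols and no measured value, though these gene families were picked for study with earlier results of the data known. Their levels were read in gingival tissue of 4 groups with 3 libraries each: WT naive, CybbKO naive, WT ligated and CybbKO ligated, where WT is C57BL/6 by the labels and C57BL/6J by the methods of the study, and CybbKO is labelled Cybb-/-, a disruption of the gene for the catalytic subunit of the phagocyte NADPH oxidase Nox2 in all cells of the mouse. Ligated mice carried a silk ligature around a maxillary molar for 8 days, and naive mice carried none. All mice were under 12 weeks old by the labels, while the methods of the study give a narrower age range, and the series states 3 age- and sex-matched mice per group.

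Superoxide made by NADPH oxidases and mitochondria is turned into hydrogen peroxide by the superoxide dismutases. Hydrogen peroxide is then reduced to water by catalase, by glutathione peroxidases that spend glutathione, and by peroxiredoxins that spend thioredoxin, while reductases driven by NADPH restore glutathione and thioredoxin. Glutathione S-transferases join glutathione to reactive lipids and foreign compounds. In stratified epithelium such as gingiva many of these genes are known targets of the transcription factor Nrf2, which binds antioxidant response elements.

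Promoter sequence was read for members that were called in the ligature comparison, a pair called higher (Gpx8, Prdx4) and a pair called lower (Gsta3, Sod1), to show where motifs of the antioxidant response and of endoplasmic reticulum (ER) stress do and do not stand. The pair called lower was picked as the called members that hold the antioxidant motif. The sequences are RefSeq promoters on GRCm38.p6, 5′ to 3′ on the gene's strand, from 250 bases before the transcript start, with bases annotated as exon left out. Capitals mark a match to the core antioxidant response element, TGACNNNGC, on either strand. Gpx8 is at chr13:113046411-113046638 on the minus strand, Prdx4 at chrX:155338475-155338710 on the minus strand in an intron of a longer Prdx4 transcript, Gsta3 at chr1:21240335-21240584 on the plus strand and Sod1 at chr16:90220512-90220753 on the plus strand.
Gpx8: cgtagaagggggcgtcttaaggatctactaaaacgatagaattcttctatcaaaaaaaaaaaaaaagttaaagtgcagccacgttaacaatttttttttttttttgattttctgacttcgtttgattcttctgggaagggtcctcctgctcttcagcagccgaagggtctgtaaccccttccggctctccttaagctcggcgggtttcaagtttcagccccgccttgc
Prdx4: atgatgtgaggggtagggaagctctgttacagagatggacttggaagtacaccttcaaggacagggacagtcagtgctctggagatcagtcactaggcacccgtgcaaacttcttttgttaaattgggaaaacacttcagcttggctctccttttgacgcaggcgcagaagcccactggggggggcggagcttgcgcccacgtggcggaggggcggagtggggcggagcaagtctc
Gsta3: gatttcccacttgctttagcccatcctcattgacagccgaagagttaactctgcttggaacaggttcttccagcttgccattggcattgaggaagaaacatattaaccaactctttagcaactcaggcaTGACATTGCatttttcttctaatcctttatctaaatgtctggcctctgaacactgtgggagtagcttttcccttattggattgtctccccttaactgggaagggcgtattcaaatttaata
Sod1: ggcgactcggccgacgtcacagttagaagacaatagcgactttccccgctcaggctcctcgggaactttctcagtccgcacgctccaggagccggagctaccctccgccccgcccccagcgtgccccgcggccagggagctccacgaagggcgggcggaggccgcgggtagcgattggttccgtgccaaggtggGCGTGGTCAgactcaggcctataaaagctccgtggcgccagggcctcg
The Gsta3 match lies 121 to 113 bases before the transcript start on the gene's strand, and the Sod1 match 56 to 48 bases before it on the other strand. Promoters were found for 46 of the 51 members. In the 250 bases before the start the core element stood in 6 members, Gsta3, Gstm5, Gstm7, Mgst1, Prdx1 and Sod1, which is 6 of the 62 promoters listed for members (9.68%), and in 10.2% of all 32851 mouse promoters. It stood in 2 of the 11 members called lower that have a promoter, in 0 of 3 called higher and in 4 of 29 not called. The ER stress element, CCAAT and CCACG held 9 bases apart, searched on both strands, stood in the window of 0 members and in 0.113% of all promoters. A match is a run of letters and not a measured binding site.

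Total counts ran from 27958819 to 42613423 per library. The epithelial keratins Krt5 and Krt13 stood at 3572 to 6911 and 20750 to 43913 CPM (the count scaled to a common library size) in the 12 libraries. Skeletal muscle markers summed to 644 CPM in WT ligated 2, the lowest library, and 3317 CPM in CybbKO naive 3, the highest. Cybb, the targeted gene, was at 5.60, 5.38 and 4.19 CPM in WT naive and 8.41, 15.2 and 12.8 in WT ligated libraries, and at 41.6, 56.3 and 45.9 in CybbKO naive and 56.1, 51.1 and 63.7 in CybbKO ligated libraries. The libraries labelled CybbKO thus held more Cybb RNA, by a log2 difference of 3.24 ± 0.23 (SE) in naive and 2.23 ± 0.21 in ligated tissue in edgeR's quasi-likelihood test (adjusted p = 0.000128 and 0.00420), which goes against a loss of transcript, and every genotype below is the label's. A pair of libraries stood apart. WT naive 3 held a summed salivary and mucous gland signal of 29491 CPM against 64.4 to 5127 in the other 11 (9 of 10 listed genes in the table, Prol1 at 0), and CybbKO ligated 2 held a summed fibroblast signal of 4510 CPM against 12109 and 11151 in CybbKO ligated 1 and 3.

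The members took 0.795% to 0.982% of the scaled counts of a library. Levels between genes were compared per kilobase of exon (FPKM). Gsto1, an omega class transferase that also reduces dehydroascorbate, stood at a median of 1133 FPKM over the 12 libraries (859.7 to 1245) and made up 21.1% to 25.8% of the members' summed CPM. It was followed by Gsta4, which conjugates the lipid aldehyde 4-hydroxynonenal, at 554 FPKM, the cytosolic thioredoxin Txn1 at 477, and the peroxiredoxins Prdx1 at 293 and Prdx6 at 209. Gpx2, the epithelial glutathione peroxidase, was the highest Gpx at 112 FPKM, above Gpx1 at 95.1 and the secreted Gpx3 at 86.9. Of the 48 members that passed the filter on low counts, 10 had a median over 100 FPKM, 19 lay between 10 and 100 and 19 were under 10, 4 of these under 1. The plot of levels by gene runs from Gsto1 down to Gsto2 at 0.249 FPKM.

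**Figure D1:**
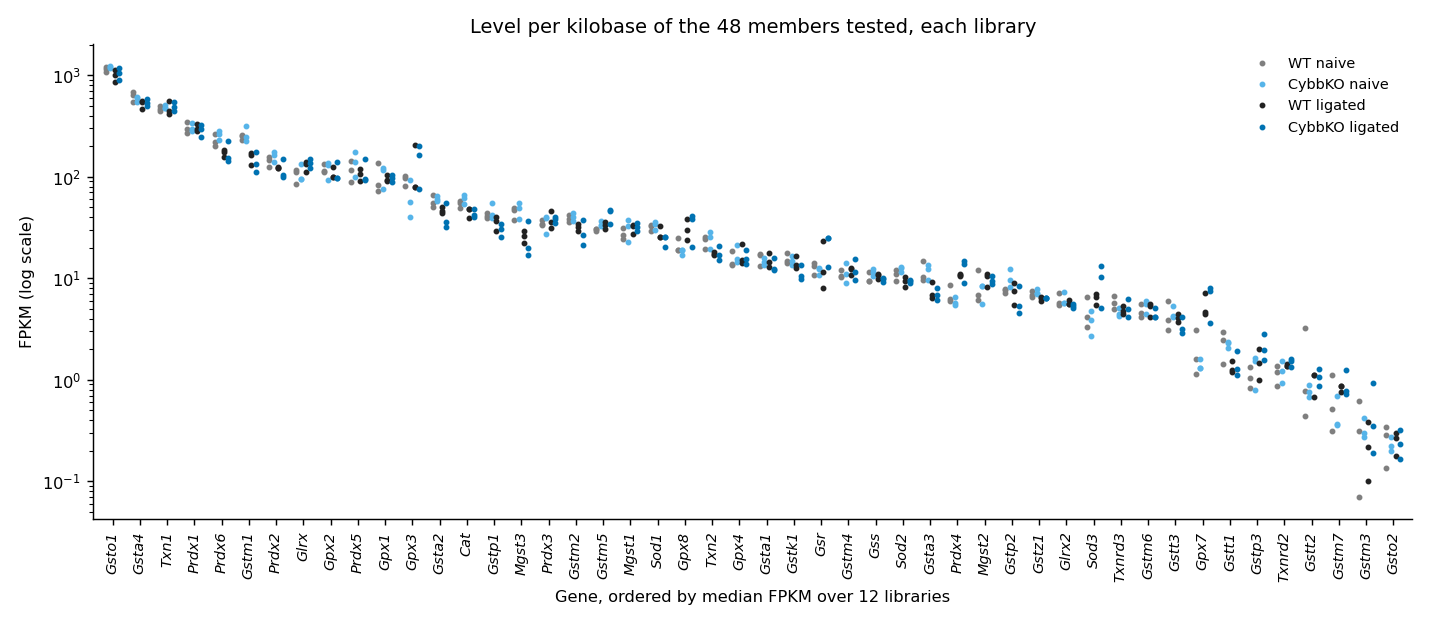
Level of the 48 members tested in each of the 12 libraries, in FPKM on a log axis, ordered by the median over libraries, with 1 point per library and the groups in colour. Gsto1 stands highest at a median of 1133 FPKM and Gsto2 lowest at 0.249 FPKM, and for most genes the 4 groups overlap.

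The other 3 members did not pass. Gpx5 had 0 counts in all 12 libraries, Gpx6 had 1 count in all, and Gstt4 had 12 counts in all with at most 4 in a library. Gpx5 and Gpx6 are known from the epididymis and the olfactory epithelium.

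For some members the sequence itself limits the count. Of all 75-base windows of a member's transcripts, 84.7% for Gsta1, 50.1% for Gstp2, 36.6% for Gsta2, 29.8% for Gpx4, 29.2% for Gstp1, 21.6% for Gstm3, 16.2% for Sod2, 11.7% for Gstm1 and 11.5% for Gstt3 also occur in transcripts of other genes, mostly tandem copies and pseudogenes. Values of these 9 genes are uncertain to that extent, and 34 members share no such window.

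The ligature comparison asked which of these enzymes differed between gingiva 8 days after ligature placement and naive gingiva. Over the mean of the genotypes, 16 of 48 members were called (adjusted p under 0.05, edgeR quasi-likelihood test), which is 33.3%, and 24.4% of all 15046 genes tested were called. The members called higher were 4, Gpx7, Gpx8, Prdx4 and Sod3, of which the first 3 reside in the ER and the last outside the cell, and 14.7% of all genes were called higher. The members called lower were 12, Gstm1, Gstm2, Gsta2, Gsta3, Gstp1, Gstt1, Mgst3, Prdx6, Txn2, Cat, Sod1 and Sod2, and 9.66% of all genes were called lower. The median log2 difference was -0.09 over the 48 members and -0.03 over all genes. With scaling by library size only, which moved the median of all genes up by 0.10, the split of called members became 6 higher and 5 lower, while every one of the 16 kept its sign.

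Of the superoxide dismutases, the extracellular enzyme Sod3 rose while the cytosolic Sod1 and the mitochondrial Sod2 fell. Sod3 was at 12.5, 15.6 and 24.6 CPM in WT naive, 17.9, 10.2 and 14.4 in CybbKO naive, 20.6, 24.5 and 26.4 in WT ligated and 49.1, 19.02 and 38.5 in CybbKO ligated libraries (replicates 1 to 3 in order, here and below). CybbKO ligated 1 and 3 stood above all other libraries, and WT naive 3 alone of the naive libraries reached into the range of the other 4 ligated ones. The log2 difference of Sod3 between ligated and naive tissue was 0.89 ± 0.24 (SE; adjusted p = 0.0199), and the call was lost without CybbKO ligated 1 or without WT naive 2. Sod1 was at 129, 116 and 134 CPM in WT naive, 119, 137 and 141 in CybbKO naive, 102, 100.4 and 129 in WT ligated and 101, 100.2 and 80.6 in CybbKO ligated libraries, with WT ligated 3 inside the naive range and the other 5 ligated libraries below it. Its log2 difference was -0.35 ± 0.10 (adjusted p = 0.0217). Sod2 was at 121, 111 and 93.7 CPM in WT naive, 114, 130.1 and 125 in CybbKO naive, 94.4, 81.8 and 102 in WT ligated and 90.1, 94.2 and 96.6 in CybbKO ligated libraries, where only WT naive 3 reached down into the ligated range. Its log2 difference was -0.31 ± 0.09 (adjusted p = 0.0213), and the calls of Sod1 and Sod2 were lost with scaling by library size only. Both were also lost without WT ligated 1 or without WT ligated 2, Sod1 without CybbKO ligated 3 or CybbKO naive 3, and Sod2 without CybbKO ligated 1.

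Catalase, the peroxisomal enzyme that splits hydrogen peroxide, fell. Cat was at 152, 145 and 129 CPM in WT naive, 139.6, 171 and 159.7 in CybbKO naive, 126, 127 and 103 in WT ligated and 110.5, 126 and 105 in CybbKO ligated libraries, and every ligated library lay below every naive library. The log2 difference was -0.36 ± 0.09 (adjusted p = 0.0129), which is 0.778 of the naive level. The call stood with each of the 12 libraries left out in turn and was lost with scaling by library size only.

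Of the glutathione peroxidases, the ER residents Gpx7 and Gpx8, which use peroxide in oxidative protein folding, rose, and none fell. Gpx7 was at 1.46, 2.06 and 3.97 CPM in WT naive, 2.08, 1.69 and 1.68 in CybbKO naive, 5.68, 6.04 and 9.16 in WT ligated and 10.3, 4.65 and 9.61 in CybbKO ligated libraries. Every ligated library stood above every naive library, the nearest being WT naive 3 and CybbKO ligated 2. Gpx7 had the largest difference of the 48 members, 1.83 ± 0.28 on the log2 scale (adjusted p = 0.00109), a 3.55-fold higher level. Gpx8 was at 19.9, 19.9 and 26.3 CPM in WT naive, 17.6, 19.8 and 19.7 in CybbKO naive, 24.8, 30.98 and 39.96 in WT ligated and 43.1, 21.1 and 40.1 in CybbKO ligated libraries, with WT ligated 1 and CybbKO ligated 2 inside the naive range and the other 4 ligated libraries above it. Its log2 difference was 0.70 ± 0.18 (adjusted p = 0.0147). Both calls stood with each library left out in turn.

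Gpx2, the highest glutathione peroxidase in CPM, did not pass the test, and its groups overlapped throughout. Gpx2 was at 364, 355 and 429 CPM in WT naive, 420.1, 300.4 and 442 in CybbKO naive, 397, 319 and 317 in WT ligated and 313, 454 and 310.5 in CybbKO ligated libraries, a log2 difference of -0.13 ± 0.13 (adjusted p = 0.516). The secreted Gpx3, named here after its values were seen, was at 147, 176 and 186 CPM in WT naive, 168, 73.5 and 102 in CybbKO naive, 144, 143 and 372 in WT ligated and 367, 138 and 296 in CybbKO ligated libraries. WT ligated 3 and CybbKO ligated 1 and 3 lay above all naive libraries and the other 3 ligated libraries among them, and the log2 difference of 0.80 ± 0.31 did not pass (adjusted p = 0.0788). Gpx1 and Gpx4, the cytosolic enzyme and the lipid peroxide reductase, differed by -0.07 ± 0.16 and 0.03 ± 0.15 on the log2 scale, with 95% intervals of -0.42 to 0.28 and -0.30 to 0.36.

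Of the 6 peroxiredoxins, the ER resident Prdx4 rose and Prdx6, which also carries a phospholipase activity, fell. Prdx4 was at 12.5, 13.3 and 18.01 CPM in WT naive, 11.9, 11.6 and 13.9 in CybbKO naive, 22.7, 22.4 and 23.2 in WT ligated and 30.8, 19.1 and 29.1 in CybbKO ligated libraries. Every ligated library stood above every naive library, with CybbKO ligated 2 the lowest of the ligated and WT naive 3 the highest of the naive. The log2 difference was 0.86 ± 0.14 (adjusted p = 0.00135), a 1.82-fold higher level. Prdx6 was at 1047, 1253 and 965 CPM in WT naive, 1109.8, 1366 and 1267 in CybbKO naive, 875, 755 and 839 in WT ligated and 685, 1072 and 728 in CybbKO ligated libraries, and CybbKO ligated 2 alone of the ligated libraries reached into the naive range. Its log2 difference was -0.50 ± 0.13 (adjusted p = 0.0157). The calls of Prdx4 and Prdx6 stood with each library left out in turn and under each other setting tried. The cytosolic Prdx1 and Prdx2, the mitochondrial Prdx3 and the more widely located Prdx5 did not pass, with log2 differences from -0.32 ± 0.12 for Prdx2 to 0.09 ± 0.12 for Prdx3.

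**Figure D2:**
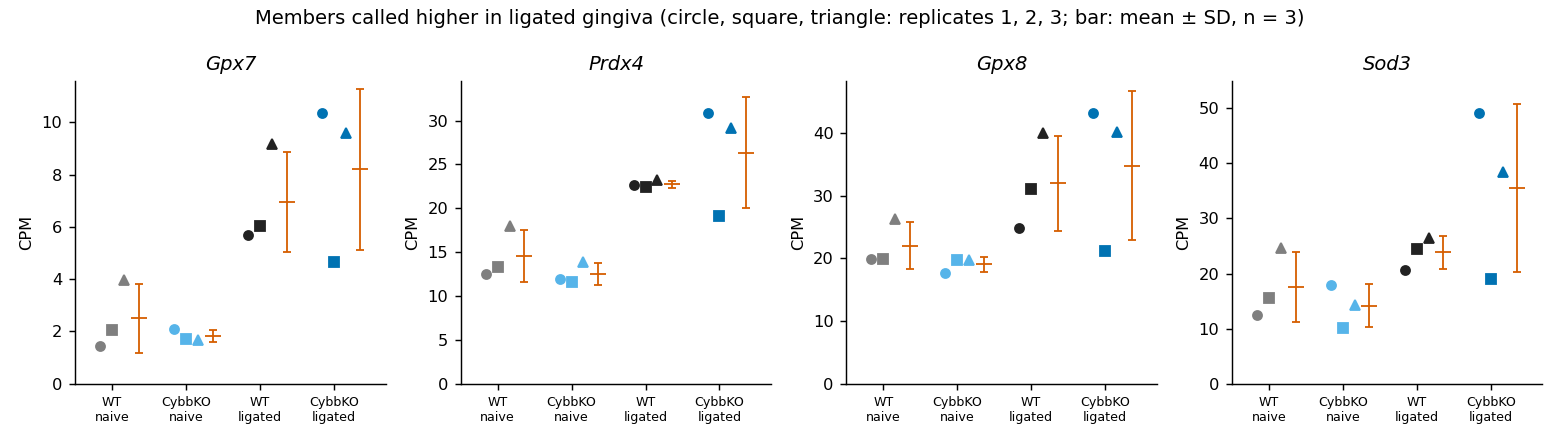
CPM of the 4 members called higher in ligated gingiva, by group, with a circle, square and triangle for replicates 1, 2 and 3 and the mean ± SD of the 3 libraries in orange. Gpx7 runs from 1.46 to 3.97 CPM in naive and from 4.65 to 10.3 CPM in ligated libraries, and CybbKO ligated 2 is the lowest of its group for each of the 4 genes.

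The 4 genes called higher and Gpx3, a set put together after the values were seen, shared part of their order among libraries. All 5 were highest of their group in WT naive 3, WT ligated 3 and CybbKO ligated 1, and all 5 were lowest of their group in WT naive 1 and CybbKO ligated 2. They did not share an order in CybbKO naive libraries, where the highest was replicate 1 for 3 genes and the lowest replicate 2 for 3 genes, nor a lowest library in WT ligated, which was replicate 1 for 3 genes and replicate 2 for 2. A list of 9 fibroblast markers, all of them tested, had 8 genes called higher in ligated tissue. The summed level of the list was 2125, 2717 and 3397 CPM in WT naive, 2173, 1678 and 1849 in CybbKO naive, 6107, 7217 and 9218 in WT ligated and 12109, 4509.6 and 11151 in CybbKO ligated libraries, with no marker at 0. In those 5 libraries the sum stood as the genes did, highest of its group in the first 3 and lowest in the other 2. Of 14 marker lists, 3 shared all 5 places, the others being endothelium (9 of 9 genes called higher) at 146, 175 and 206 CPM in WT naive, 178, 163 and 200.04 in CybbKO naive, 276, 316 and 418 in WT ligated and 431, 317 and 423 in CybbKO ligated libraries, and osteoblast and bone (4 of 7 genes called higher) at 16.7 to 53.6 CPM in naive and 34.8 to 108 CPM in ligated libraries. The part of fibroblast, endothelial or bone cell content in the rise of these genes was not tested, and in bulk tissue a larger share of a cell type and more RNA per cell cannot be told apart.

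No member of glutathione supply and recycling passed the test. Gss, which makes the final step of glutathione synthesis, was at 55.6, 68.5 and 56.2 CPM in WT naive, 68.7, 62.01 and 72.995 in CybbKO naive, 64.5, 57.6 and 64.04 in WT ligated and 57.7, 59.8 and 54.7 in CybbKO ligated libraries, a log2 difference of -0.10 ± 0.08 with a 95% interval of -0.28 to 0.08 (adjusted p = 0.415). Gsr, which returns oxidized glutathione to its reduced form, was at 36.2, 29.3 and 39.3 CPM in WT naive, 34.1, 29.7 and 34.96 in CybbKO naive, 22.2, 31.9 and 64.4 in WT ligated and 68.4, 35.2 and 68.7 in CybbKO ligated libraries. WT ligated 3 and CybbKO ligated 1 and 3 lay between 64.4 and 68.7 CPM and all 9 other libraries between 22.2 and 39.3 CPM, and the log2 difference of 0.49 ± 0.24 did not pass (adjusted p = 0.166). The neutrophil marker sum, of 12 genes all called higher, was 1357, 2599.8 and 3811 CPM in WT ligated and 4491, 2530.1 and 11723 in CybbKO ligated libraries against 387 to 941 in naive ones, and its part in the Gsr values was not tested. Glrx, the cytosolic glutaredoxin that uses glutathione to free protein thiols, was at 613, 635 and 465 CPM in WT naive, 726, 518 and 524 in CybbKO naive, 775, 729 and 608 in WT ligated and 674, 826 and 744 in CybbKO ligated libraries, a log2 difference of 0.32 ± 0.12 (adjusted p = 0.0794).

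In the thioredoxin branch the mitochondrial Txn2 fell, and the cytosolic Txn1 did not pass. Txn2 was at 81.3, 103 and 108 CPM in WT naive, 108, 81.6 and 121 in CybbKO naive, 76.8, 71.9 and 72.8 in WT ligated and 71.03, 87.3 and 63.9 in CybbKO ligated libraries. CybbKO ligated 2 alone of the ligated libraries lay above the lowest naive libraries, WT naive 1 and CybbKO naive 2. The log2 difference of Txn2 was -0.44 ± 0.12 (adjusted p = 0.0183) and stayed called with each library left out in turn. Txn1 was at 485, 467 and 525 CPM in WT naive, 529, 504 and 499.6 in CybbKO naive, 469, 439 and 582 in WT ligated and 517, 471 and 574 in CybbKO ligated libraries, and its log2 difference of 0.02 ± 0.09 had a 95% interval of -0.18 to 0.22. Txnrd3, a thioredoxin and glutathione reductase best known from the testis, was at 14.01, 19.1 and 16.3 CPM in WT naive, 14.3, 12.1 and 12.6 in CybbKO naive, 12.6, 15.1 and 13.4 in WT ligated and 11.7, 17.9 and 14.3 in CybbKO ligated libraries, a log2 difference of -0.05 ± 0.13 (adjusted p = 0.817). The mitochondrial reductase Txnrd2 differed by 0.28 ± 0.16 (adjusted p = 0.210).

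The glutathione S-transferases that were called were all lower. Of 22 members with a Gst symbol, 21 were tested, 0 were called higher (14.7% of all genes) and 6 were called lower (9.66% of all genes). Gstm1, a mu class enzyme and the highest of its class, was at 338, 376 and 369.9 CPM in WT naive, 332, 361 and 469 in CybbKO naive, 253, 192 and 241 in WT ligated and 195, 261 and 162 in CybbKO ligated libraries. Every ligated library lay below every naive library, and the log2 difference was -0.78 ± 0.13 (adjusted p = 0.00182), 0.580 of the naive level. Gsta3, an alpha class enzyme known for its action on aflatoxin epoxide, was at 63.7, 41.8 and 44.4 CPM in WT naive, 41.6, 58.7 and 53.1 in CybbKO naive, 28.003, 29.5 and 39.7 in WT ligated and 29.8, 34.5 and 26.7 in CybbKO ligated libraries. Here too every ligated library lay below every naive library, and the log2 difference was -0.69 ± 0.14 (adjusted p = 0.00550). Both calls stood with each library left out in turn and under each other setting tried.

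Gstp1, the pi class enzyme, was at 63.6, 60.8 and 67.6 CPM in WT naive, 60.2, 65.3 and 84.9 in CybbKO naive, 61.8, 44.7 and 56.6 in WT ligated and 46.9, 53.1 and 39.6 in CybbKO ligated libraries, with WT ligated 1 the only ligated library above the lowest naive ones. Its log2 difference was -0.41 ± 0.12 (adjusted p = 0.0236). A further 3 transferases were called and are named here after their values were seen. Gsta2 was at 78.5, 65.2 and 59.7 CPM in WT naive, 68.03, 75.3 and 70.7 in CybbKO naive, 58.8, 51.5 and 53.7 in WT ligated and 42.6, 64.8 and 37.3 in CybbKO ligated libraries, a log2 difference of -0.44 ± 0.13 (adjusted p = 0.0294). Gstm2 was at 64.7, 60.1 and 70.9 CPM in WT naive, 61.4, 67.3 and 74.3 in CybbKO naive, 53.2, 49.5 and 56.98 in WT ligated and 44.8, 62.3 and 35.9 in CybbKO ligated libraries, a log2 difference of -0.40 ± 0.12 (adjusted p = 0.0348). For both, CybbKO ligated 2 alone of the ligated libraries lay inside the naive range. The theta class Gstt1 was at 2.19, 3.76 and 4.56 CPM in WT naive, 3.64, 3.11 and 3.51 in CybbKO naive, 1.89, 1.83 and 2.34 in WT ligated and 1.93, 2.97 and 1.71 in CybbKO ligated libraries, a log2 difference of -0.71 ± 0.21 (adjusted p = 0.0297), on a level near 3 CPM. The calls of Gstp1, Gsta2, Gstm2 and Gstt1 were lost with scaling by library size only, and that of Gstm2 also with the replicate number as a block. That of Gstp1 was lost without WT ligated 2, CybbKO ligated 1, CybbKO ligated 3 or CybbKO naive 3. With a single library left out, Gsta2 stayed called for 4 of the 12 (WT naive 3, CybbKO naive 1, WT ligated 1 and CybbKO ligated 2), Gstm2 for 3 (CybbKO ligated 2, WT naive 2 and CybbKO naive 1) and Gstt1 for 4 (WT naive 1, CybbKO naive 2, WT ligated 3 and CybbKO ligated 2).

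The most abundant transferases did not pass. Gsto1 was at 2417, 2317 and 2160.0 CPM in WT naive, 2518, 2428 and 2377 in CybbKO naive, 1739, 2036 and 2266 in WT ligated and 1809, 2403 and 2103 in CybbKO ligated libraries, a log2 difference of -0.20 ± 0.10 with a 95% interval of -0.43 to 0.03. Gsta4 was at 866, 811 and 694 CPM in WT naive, 759, 686 and 778 in CybbKO naive, 685, 708 and 595 in WT ligated and 626, 739 and 668 in CybbKO ligated libraries, a log2 difference of -0.19 ± 0.09 with a 95% interval of -0.39 to 0.01. Both intervals cross 0 near their upper end. The kappa class Gstk1 of mitochondria and peroxisomes was at 20.7, 21.7 and 25.8 CPM in WT naive, 19.7, 24.5 and 21.9 in CybbKO naive, 20.1, 18.7 and 24.3 in WT ligated and 15.6, 20.01 and 14.3 in CybbKO ligated libraries, a log2 difference of -0.26 ± 0.12 (adjusted p = 0.130). Gstz1, which also breaks down tyrosine, was at 35.1, 33.3 and 37.8 CPM in WT naive, 35.6, 36.3 and 39.7 in CybbKO naive, 32.7, 30.4 and 33.5 in WT ligated and 32.4, 32.4 and 32.6 in CybbKO ligated libraries, a log2 difference of -0.17 ± 0.07 (adjusted p = 0.117). Gstt3, the highest theta class member, was at 14.8, 11.99 and 22.8 CPM in WT naive, 16.3, 20.6 and 16.01 in CybbKO naive, 15.7, 14.2 and 16.9 in WT ligated and 12.1, 15.995 and 11.1 in CybbKO ligated libraries, a log2 difference of -0.26 ± 0.16 (adjusted p = 0.274). Its relative Gstt2 was at 13.5 CPM in WT naive 3, the library with the salivary gland signal, and at 1.83 to 5.32 CPM in the other 11.

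Genes that lie side by side were not all called together. The 7 mu class genes lie within 149 kb of chromosome 3 (chr3:107895821-108044894, GRCm38, GENCODE M21). From the start of that stretch the log2 differences were 0.23 for Gstm5, 0.67 for Gstm7, -0.09 for Gstm6, 0.04 for Gstm3, -0.40 for Gstm2, -0.78 for Gstm1 and 0.12 for Gstm4, and only the neighbours Gstm2 and Gstm1 were called. In the theta cluster on chromosome 10 (chr10:75783813-75798584 for Gstt1) Gstt1 was called and Gstt3 and Gstt2 were not, while Gstt4, which lies between Gstt1 and Gstt2, was not tested. In the pi cluster on chromosome 19 Gstp1 was called, while Gstp2, 536 of whose 1193 transcript windows of 75 bases also occur in Gstp1, differed by -0.39 ± 0.18 and Gstp3 by 0.58 ± 0.27 without passing. Some of the uncalled neighbours had few counts over the 12 libraries, 499 for Gstm7, 194 for Gstm3 and 600 for Gstp3, against 124160 for Gstm1. Differences between neighbours were not tested.

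Of the 3 microsomal transferases, Mgst3 fell. Mgst3, a membrane enzyme with glutathione peroxidase activity, was at 41.5, 54.1 and 51.9 CPM in WT naive, 53.5, 41.8 and 61.04 in CybbKO naive, 32.2, 24.2 and 28.5 in WT ligated and 21.9, 39.9 and 18.6 in CybbKO ligated libraries. Every ligated library lay below every naive library, though CybbKO ligated 2 came close to the lowest naive ones, WT naive 1 and CybbKO naive 2. The log2 difference was -0.88 ± 0.18 (adjusted p = 0.00566), 0.544 of the naive level and the largest fall among the members. Mgst1, the highest of its family, was at 63.1, 54.1 and 49.2 CPM in WT naive, 45.5, 75.99 and 65.2 in CybbKO naive, 67.3, 55.4 and 65.3 in WT ligated and 58.5, 70.7 and 64.9 in CybbKO ligated libraries, a log2 difference of 0.12 ± 0.12 (adjusted p = 0.539).

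**Figure D3:**
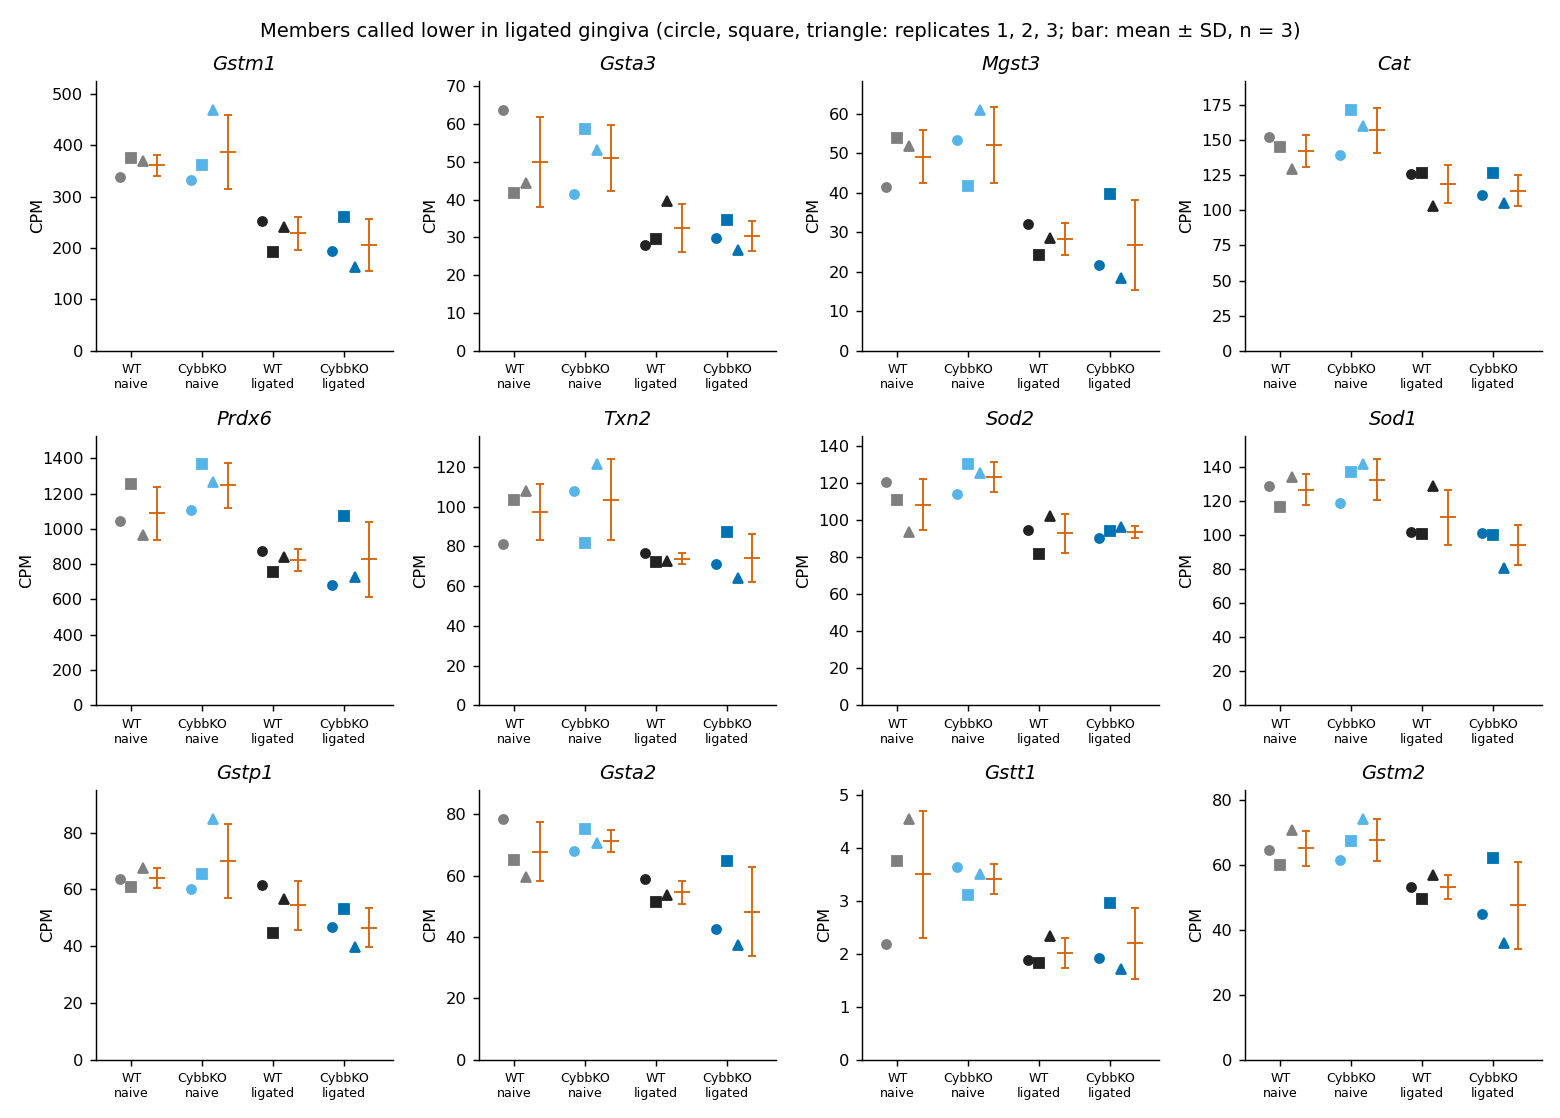
CPM of the 12 members called lower in ligated gingiva, by group, with a circle, square and triangle for replicates 1, 2 and 3 and the mean ± SD of the 3 libraries in orange. For Gstm1, Gsta3, Mgst3 and Cat no ligated library reaches a naive one. CybbKO ligated 2 is the highest of its group for 10 of the 12 genes, and for 33 of all 48 members tested.

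Groups without overlap were few. Over both genotypes, 2 members (Gpx7 and Prdx4) stood higher in every ligated than in every naive library, as did 6.73% of all genes, and 4 members (Gstm1, Gsta3, Mgst3 and Cat) stood lower, as did 4.31% of all genes. Of the 12 members called lower, 10 were highest of the CybbKO ligated group in CybbKO ligated 2, as were 33 of all 48 members tested. That library had the lowest fibroblast sum of the ligated libraries. The sum of 12 oral epithelium markers, all tested, of which 1 was called higher and 3 lower, was 106162, 93227 and 73617 CPM in WT ligated, 79647, 121559 and 72691 in CybbKO ligated and 97719.6 to 141240.0 CPM in naive libraries, with no marker at 0. Its part in the falls was not tested.

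Within each genotype the same contrast rests on 3 against 3 libraries. In WT mice 0 of 48 members were called by edgeR, where 3.2% of all genes were called, and 8 members had an unadjusted p under 0.05, as did 19.9% of all genes. DESeq2 called 5 members and 9.14% of all genes. The smallest adjusted p was 0.0623, for Gpx7, with a log2 difference of 1.48 ± 0.39. In the mice labelled CybbKO 10 members were called, where 13% of all genes were called: Gpx7, Gpx8, Prdx4 and Sod3 higher (9.95% of all genes) and Cat, Gsta3, Gstm1, Gstp1, Mgst3 and Sod1 lower (3.04% of all genes). That split of 4 higher and 6 lower became 4 and 2 with scaling by library size only, 3 and 2 with the replicate number as a block and 2 and 2 in a fit of the compared groups alone. Of the 6 lower calls Gstm1 alone stood in all 3 of these settings, while Mgst3 stood in the first, Cat in the second and Gsta3 in the third. Among the called members the largest differences there were 2.17 ± 0.40 for Gpx7, 1.33 ± 0.34 for Sod3 and 1.08 ± 0.20 for Prdx4 on the log2 scale (adjusted p = 0.00559, 0.0259 and 0.00536), and the lowest -0.96 ± 0.26 for Mgst3 and -0.91 ± 0.19 for Gstm1 (adjusted p = 0.0313 and 0.00968).

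The count in the CybbKO mice turned on single libraries. It was 19 without CybbKO ligated 2, where 19.4% of all genes were called. It was 3 without CybbKO ligated 1, without CybbKO ligated 3 or without CybbKO naive 3, and 5 without CybbKO naive 2, where 5.52%, 5.63%, 7.55% and 7.32% of all genes were called. In WT it was 2 without WT naive 3 and 4 without CybbKO ligated 2, where 4.85% and 5.93% of all genes were called. Gpx7, Gstm1 and Prdx4 were called in CybbKO mice with each of the 12 libraries left out in turn. The calls of Cat, Gsta3, Gstp1, Sod1, Sod3 and Mgst3 were lost without CybbKO ligated 1, CybbKO ligated 3 or CybbKO naive 3, the first 5 also without CybbKO naive 2, and Mgst3 also without CybbKO naive 1. That of Gpx8 was lost without any of these 5 libraries and without WT ligated 2 or WT naive 2. By DESeq2 17 members were called in CybbKO mice and 18.4% of all genes, and over the mean of the genotypes 19 members and 29.9% of all genes.

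**Figure D4:**
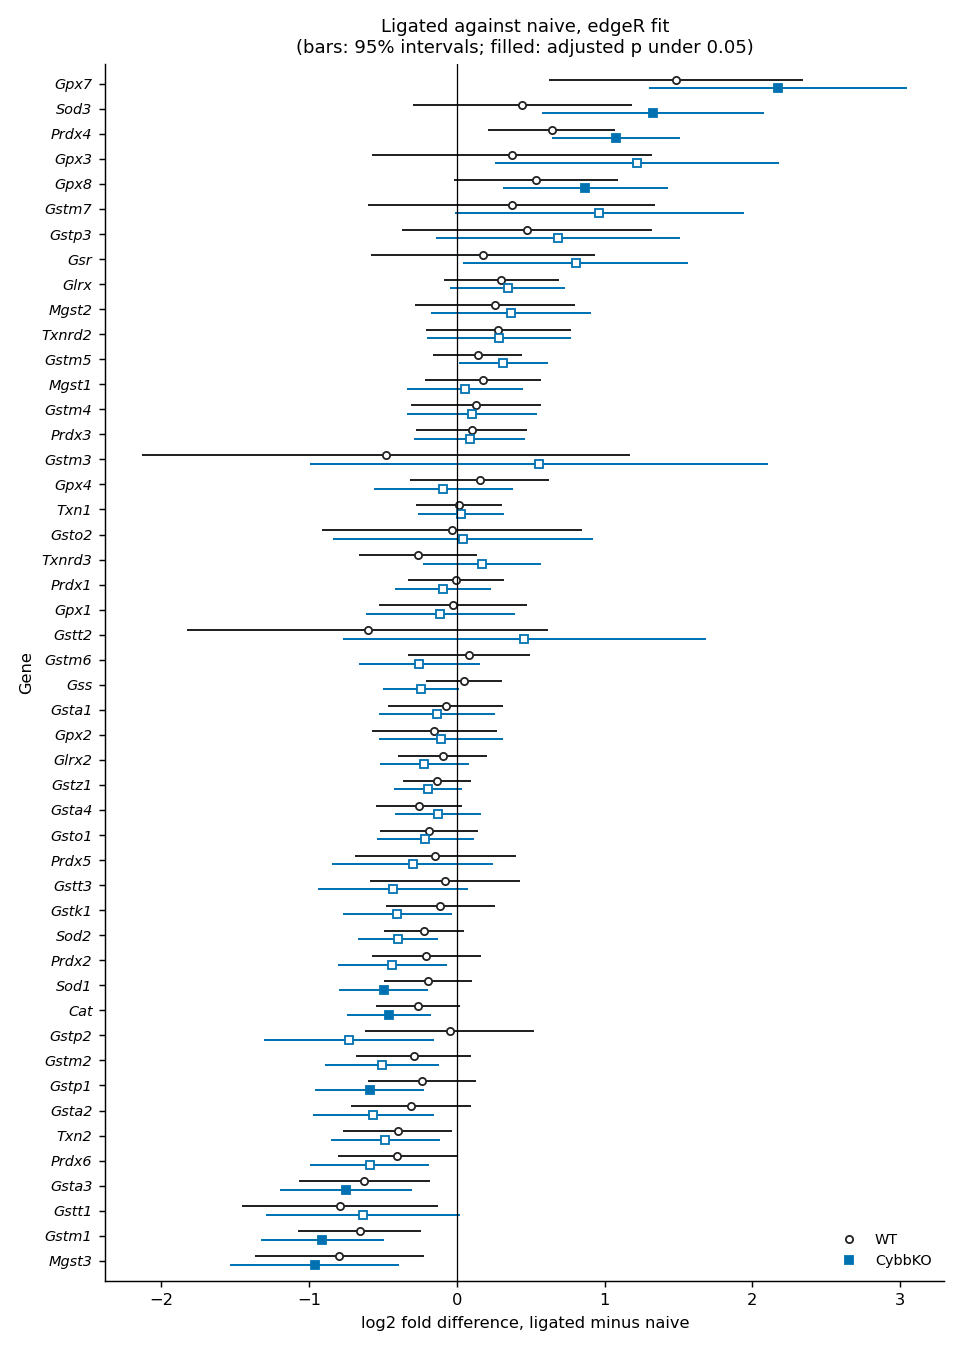
Log2 difference of ligated minus naive tissue with 95% intervals for the 48 members, in WT (black circles) and CybbKO mice (blue squares), ordered by the mean of the genotypes, with filled symbols for an adjusted p under 0.05. No WT symbol and 10 CybbKO symbols are filled, and the WT and CybbKO intervals of each gene overlap.

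Whether the ligature response differed between the genotypes was asked of the difference of the differences. No member was called (0 of 48), as was no gene of all tested, and 0 members had an unadjusted p under 0.05 by edgeR or by DESeq2, while 2.27% of all genes did by edgeR and 2.72% by DESeq2. The absolute log2 difference was larger in CybbKO than in WT mice for 39 of 48 members and for 58.9% of all genes, with no test of that count. The smallest p belonged to Gstp2, a pi class transferase, which was at 8.04, 8.79 and 8.57 CPM in WT naive, 9.03, 10.8 and 13.8 in CybbKO naive, 10.1, 6.02 and 8.43 in WT ligated and 5.90, 9.25 and 5.09 in CybbKO ligated libraries. Its interaction was -0.68 ± 0.37 on the log2 scale (95% interval -1.48 to 0.12, adjusted p = 1.00), and part of its transcript sequence also occurs in Gstp1. Sod3 had an interaction of 0.89 ± 0.48 (95% interval -0.16 to 1.93). The interaction interval lay within 1 log2 unit of 0 for 34 of 48 members and within 0.5 for 3, so for the rest differences in response above those sizes lay inside the interval.

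The genotype comparison asked whether loss of Nox2, a source of superoxide, went with other levels of the enzymes that remove it. No member was called between the libraries labelled CybbKO and WT in naive tissue (0 of 48), in ligated tissue (0 of 48) or over the mean of both (0 of 48), where 0.00665% of all genes, which is Cybb itself, were called in each. By unadjusted p under 0.05 edgeR marked 0 members in naive tissue, 1 in ligated tissue and 1 over both, where 2.03%, 3.34% and 2.46% of all genes were marked. DESeq2 called 0 members in each, where it called 2, 14 and 9 genes in all (0.0133%, 0.093% and 0.0598%). It marked 0, 2 and 1 members by unadjusted p, and 2.59%, 3.59% and 2.75% of all genes. The median log2 difference of CybbKO against WT over the 48 members was 0.05 in naive, 0.01 in ligated tissue and 0.03 over both, and over all genes 0.00, 0.01 and 0.00. The 95% interval lay within 1 log2 unit of 0 for 40 members in naive, 40 in ligated tissue and 46 over both, and within 0.5 for 22, 18 and 37.

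The member marked in ligated tissue and over both was Gstm5, a mu class transferase known from testis and brain. Gstm5 was at 39.1, 39.4 and 37.3 CPM in WT naive, 42.98, 46.6 and 41.6 in CybbKO naive, 42.9, 39.02 and 45.7 in WT ligated and 43.3, 59.2 and 60.6 in CybbKO ligated libraries. All 3 CybbKO naive libraries stood above all 3 WT naive libraries, as they did for Gstp2 and for 2.08% of all genes, while for Gpx8 and 3.03% of all genes they stood below. In ligated tissue CybbKO ligated 2 and 3 stood above the WT ligated libraries while CybbKO ligated 1 lay among them. The log2 difference was 0.18 ± 0.13 in naive and 0.35 ± 0.13 in ligated tissue (adjusted p = 1.00 in each). In naive tissue the smallest p belonged to Txnrd3, whose values are given above, with a log2 difference of -0.34 ± 0.18 and a 95% interval of -0.73 to 0.05. For some of the abundant enzymes the intervals of CybbKO against WT in ligated tissue were -0.33 to 0.22 for Cat, -0.38 to 0.40 for Prdx6, -0.35 to 0.47 for Gpx2 and -0.25 to 0.27 for Sod2, while for Gpx3, Sod3 and Gpx7 they reached -0.66 to 1.22, -0.16 to 1.31 and -0.58 to 1.05.

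**Figure D5:**
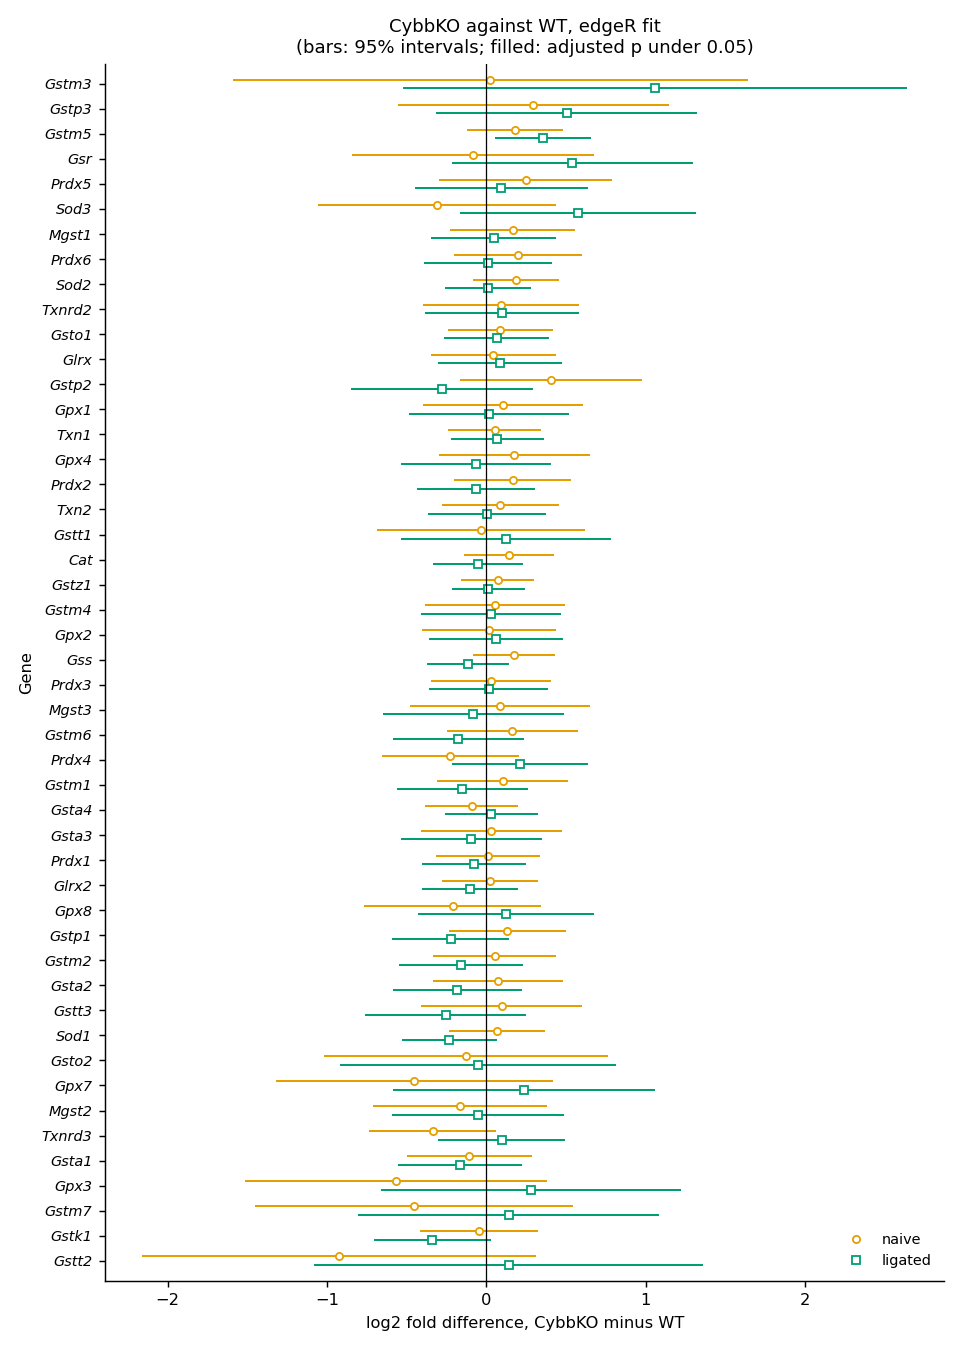
Log2 difference of CybbKO minus WT with 95% intervals for the 48 members, in naive (orange circles) and ligated tissue (green squares), ordered by the mean of both. No symbol is filled, since no adjusted p was under 0.05, and the intervals are narrow for Gstz1 and Cat and wide for Gstm3 and Gstt2.

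Genes around these enzymes were read from lists of their pathways, for the ligature contrast over the mean of the genotypes, in which 14.7% of all genes were called higher and 9.66% lower. Of 14 tested genes that make superoxide or peroxide, 8 were called higher and 1 lower, with a median log2 difference of 0.68. Among those higher were Rac2 (1.72 ± 0.22) and Ncf4 (1.41 ± 0.21), partners of Nox2 in phagocytes (adjusted p = 0.000473 and 0.000986), beside 12 of 12 neutrophil markers (median log2 difference 2.39) and 12 of 12 monocyte and macrophage markers (1.29) called higher. The monocyte and macrophage sum was 143 to 195 CPM in naive and 243 to 583 CPM in ligated libraries, and the part of these cells in the higher levels of the 8 genes was not tested. The gene called lower, named after its value was seen, was Duox1, the epithelial dual oxidase (-0.34 ± 0.10, adjusted p = 0.0242). Of 10 genes of Nrf2 and its regulators, 0 were called higher and 3 lower: Nfe2l2, which encodes Nrf2 (-0.54 ± 0.13, adjusted p = 0.0101), its partner Mafk (-0.35 ± 0.11, adjusted p = 0.0337) and its target Nqo1 (-0.42 ± 0.14, adjusted p = 0.0471).

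Of 19 tested genes of glutathione synthesis, breakdown and export, 2 were called higher and 5 lower, with a median log2 difference of -0.07. The smallest adjusted p values belonged to Cth, which makes cysteine from cystathionine (-0.60 ± 0.11, adjusted p = 0.00231), the aminopeptidase Lap3 (-0.42 ± 0.09, adjusted p = 0.00753) and Oplah, which returns 5-oxoproline to glutamate (-0.73 ± 0.16, adjusted p = 0.00772). Of 15 partners of thioredoxins and peroxiredoxins, 2 were called higher and 3 lower, among them the methionine sulfoxide reductase Msrb3 (0.86 ± 0.16, adjusted p = 0.00271), the sestrin Sesn3 (0.59 ± 0.11, adjusted p = 0.00362) and Srxn1, which repairs over-oxidized peroxiredoxins (-0.35 ± 0.10, adjusted p = 0.0225). Of 9 genes of selenoprotein synthesis, which several glutathione peroxidases and thioredoxin reductases need, 1 was called, Sephs2 (-0.36 ± 0.08, adjusted p = 0.00664). Of 8 relatives of the transferases, 2 were called higher, Alox5ap of leukotriene synthesis (1.07 ± 0.16, adjusted p = 0.000867) and Clic4 (0.70 ± 0.15, adjusted p = 0.00732). Of 10 tested genes that supply NADPH, 0 were called. In that list Nnt, the mitochondrial transhydrogenase in which C57BL/6J mice are known to carry a deletion, was at 0.0915 to 0.426 CPM over the 12 libraries of both genotypes. A further Ensembl entry with the symbol Nnt was at 0 CPM in all of them. Between the genotypes, Cybb was the only gene called in any of these lists.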

How the data were processed

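Gingival RNA from 12 mice was made into stranded mRNA libraries, and what the authors deposited are counts of reads per Ensembl gene that had not been normalized. The methods name STAR alignment to GRCm38 and strand-specific counting by featureCounts, while the submitters' processing notes name HTSeq 0.10.0 and FastQC 0.10.1, so the counter is unsettled, and how it treated reads that match several copies is not given in the sources used here. The methods name both paired-end sequencing and single-end reads. Groups came from the sample titles. Symbols, exon lengths and coordinates came from GENCODE M21 on GRCm38 for 21939 of 21965 genes. Libraries were scaled by edgeR's TMM (factors 0.918 to 1.08). CPM used the scaled library sizes, and FPKM was CPM per kilobase of merged exons. Genes were kept by filterByExpr (15046 kept), and all 12 libraries entered a single quasi-likelihood fit in edgeR 4.0.16 under R 4.3.3, in which each group had its own mean, with 7 contrasts. P-values were adjusted by Benjamini-Hochberg over all genes tested, SEs came from the log2 difference and its F statistic, and the biological coefficient of variation was 0.240. With 3 mice a group, p-values rest on the spread between these mice. The fit was tested on simulated data.

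Named members are the called ones (the 12 with the smallest adjusted p), the highest in CPM of each family and the one with the smallest p in each contrast. Other members given with values or differences depart from this rule, and not all are marked where they occur. Those not marked include Gpx1, Gpx4, Prdx1, Prdx2, Prdx3, Prdx5, Txnrd2, Gstt2, Gstp3, Gstm3, Gstm4, Gstm6 and Gstm7. The members, lists and tests were chosen with earlier results of these data known. Transcript windows of 75 bases shared with other genes were counted in GENCODE M21. The alternatives were DESeq2 1.42.0 on the filtered genes, DESeq2's size factors or library size only in edgeR, no filter, a stricter filter (10 counts or more in each library), a fit of the compared groups alone, a block for the replicate number, each library left out, and, chosen after seeing the data, WT naive 3 and CybbKO ligated 2 left out together. No protein sequence was used here.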

Additional observations from a re-analysis of the deposited data

How the results depend on the processing

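The count of members called in ligated against naive tissue over the mean of the genotypes, 16, lay between 11 (library size only, 22.3% of all genes called) and 21 (33.4%, WT naive 3 and CybbKO ligated 2 left out together, a setting chosen after seeing the data) and between 10 and 20 with each library left out, 10 being without WT ligated 2 (18.4% of all genes) and 20 without CybbKO ligated 2 (30.9%). Of the 16 members, 9 were called with each library left out, Cat, Gpx7, Gpx8, Gsta3, Gstm1, Mgst3, Prdx4, Prdx6 and Txn2. Library size only lost Cat, Gsta2, Gstm2, Gstp1, Gstt1, Sod1 and Sod2, and it moved the median of all genes by 0.11 in WT and 0.08 in CybbKO mice. In WT mice the count of 0 became 5 with DESeq2 (9.14% of all genes called) and 5 with the pair left out (10%), and 0 to 4 with each library left out. In CybbKO mice, where 13% of all genes were called, the count of 10 became 17 with DESeq2 (18.4%), 22 with the pair left out (24.5%), 6 with library size only (12.8%), 4 with only the libraries compared (10.3%) and 3 to 19 with each library left out (5.52% to 19.4%). The cause was not tested. The 4 genotype and interaction counts stayed at 0 under every setting run. No named member's called difference changed sign. DESeq2 called 4504 genes in all against 3668 by edgeR over the mean of the genotypes, and 1375 against 481 in WT mice, and 2772 against 1954 in CybbKO mice.

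With the replicate number as a block, 15 members were called over the mean of the genotypes, 0 in WT and 5 in CybbKO mice (19.9%, 1.8% and 10.5% of all genes). Of the 16 members called over the mean of the genotypes, Gstm2 was the one not called with the block. Of 18 pairs of libraries with the same number, 2 had a correlation of deviations over 0.1 (-0.23 to 0.28, median -0.13, against 0.05 for different numbers). No pairing by number was seen. Deviations from the mean of 3 libraries depend on each other, so this check cannot exclude a pairing. Depth limits the lowest members, Gpx5, Gpx6 and Gstt4, which had at most 12 counts in all.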
